A study of Mus musculus with 2 samples.

Results

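Genes of the bone morphogenetic protein (BMP) and transforming growth factor beta (TGF-beta) pathways were examined in mouse embryos at embryonic day 8.5 (E8.5). The set was a list of 39 gene symbols, chosen by name with earlier results of these data known. It was split by role into ligands, latent TGF-beta binding proteins, receptors, Smads, Id targets and antagonists. Of the 39 genes, 37 had at least 1 probe of their own (41 probes) and 32 were bright enough to compare. On the array, 18049 genes had a probe and 13129 were compared. Smad7 was not analysed here, and the only Ltbp2 probe was shared with Osbpl9 and lay near 0 on both arrays (0.0665 in the mDom-/- pool and 0.0422 in the wild-type pool).

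The mDom-/- group was 1 RNA pool of 45 embryos, homozygous for a mutation of mDom. This is the submitters' name for the gene of the p400/mDomino chromatin-remodelling ATPase, now Ep400. The wild-type group was 1 RNA pool of 42 embryos from matching litters. Both pools were total RNA of the whole embryo proper, biotin-labelled and hybridised to 1 CodeLink array each, a 1-colour platform with oligonucleotide probes. Nothing further on the allele, the strain or the sex of the embryos was in the sources used here.

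BMP and TGF-beta ligands are secreted dimers that bind paired type I and type II serine/threonine kinase receptors. The type I receptor phosphorylates receptor-regulated Smads, which join Smad4, enter the nucleus and act on target genes such as the Id family. Extracellular antagonists such as Noggin and Chordin bind ligands before they reach a receptor. In the early embryo BMP signals are known for roles in mesoderm, the dorsal neural tube, the heart and the left-right and back-belly axes, and TGF-beta signals for roles in vessels, heart cushions and matrix.

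Intensities below are in units of the array median. The floor, the 40th percentile of the probes, lay at 0.541 array medians. A log2 ratio is that of the mDom-/- pool over the wild-type pool. If 1 array of the pair was under the floor, it was raised to the floor and the fold is a bound, written "at least". With 1 array per group no value has a replicate error and no test could be run. A rule of size was used instead, at least 2-fold apart. As the only yardstick within the arrays, pairs of probes of 1 gene differed in a way that gives an SD of 0.25 for a log2 ratio, over 1303 genes. This SD covers error that differs between probes of a gene. It does not cover labelling or hybridisation error that both probes share, or the spread between pools. Both Ep400 probes lay below the floor in both pools, at -0.0295 and 0.0714 in the mDom-/- pool and 0.215 and 0.470 in the wild-type pool, so the label could not be checked on the mutated gene.

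The sequences below are from RefSeq (GRCm38.p6), 250 bases upstream of a transcription start, written along the gene's own strand. They are shown for Ltbp4, the single member more than 2-fold apart, which has annotated starts in separate places, and for Id2 and Id3, BMP target genes read well above the floor in both pools. Capitals mark matches on either strand to motifs bound by Smads: the palindrome GTCTAGAC, the shorter CAGAC and the GC-rich GGCGCC. The first Ltbp4 window lies at chr7:27337613-27337862, minus strand, and the second at chr7:27333664-27333913, minus strand. That of Id2 lies at chr12:25096093-25096342, minus strand, and that of Id3 at chr4:136143572-136143821, plus strand.
Ltbp4, far upstream start: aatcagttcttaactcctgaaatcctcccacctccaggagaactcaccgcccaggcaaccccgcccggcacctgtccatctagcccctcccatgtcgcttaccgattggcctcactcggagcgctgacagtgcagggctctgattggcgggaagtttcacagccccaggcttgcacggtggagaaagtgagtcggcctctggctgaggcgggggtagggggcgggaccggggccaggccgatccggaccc
Ltbp4, near start: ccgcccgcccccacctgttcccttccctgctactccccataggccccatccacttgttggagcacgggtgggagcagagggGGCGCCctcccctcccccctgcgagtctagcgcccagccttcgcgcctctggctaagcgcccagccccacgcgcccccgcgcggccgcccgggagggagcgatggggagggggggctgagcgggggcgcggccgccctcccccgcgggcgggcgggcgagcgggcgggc
Id2: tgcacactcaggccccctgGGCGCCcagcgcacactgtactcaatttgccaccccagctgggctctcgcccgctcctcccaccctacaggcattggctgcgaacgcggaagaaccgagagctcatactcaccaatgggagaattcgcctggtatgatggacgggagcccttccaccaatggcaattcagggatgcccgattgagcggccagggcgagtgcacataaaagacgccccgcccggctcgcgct
Id3: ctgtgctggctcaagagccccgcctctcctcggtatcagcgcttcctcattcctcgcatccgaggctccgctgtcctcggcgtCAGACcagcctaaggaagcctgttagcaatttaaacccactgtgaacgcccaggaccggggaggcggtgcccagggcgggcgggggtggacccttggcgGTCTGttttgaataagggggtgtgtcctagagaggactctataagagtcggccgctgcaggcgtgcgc

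No match lay in the first Ltbp4 window. The second Ltbp4 window and that of Id2 held 1 GGCGCC each, and that of Id3 held 2 of the CAGAC form. Over all 32851 promoter windows, CAGAC was found in 42.2%, GGCGCC in 9.59% and GTCTAGAC in 0.167%. In the 36 windows of the 28 members that have one, these shares were 44.4%, 30.6% and 0%. The windows are not separate counts: another Ltbp4 window overlaps the second one shown and holds the same GGCGCC. That motif is all G and C, and the windows shown were 62.8% to 79.2% G and C. The part of base composition in these shares was not tested. A match is a run of letters, and binding was not measured. Which Ltbp4 start gives the transcript that the probe reads is not known here.

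Over the whole set, levels in both pools were close for most genes and 1 gene stood far from the rest. Ltbp4, encoding a latent TGF-beta binding protein of the extracellular matrix, was 3.94-fold higher in the mDom-/- pool, and no member was 2-fold lower. That makes 1 of 32 compared members 2-fold higher and 0 of 32 lower, where 0.845% of all compared genes were 2-fold higher and 0.929% were 2-fold lower (1.77% in all). With a lower floor, at the 25th percentile, 2 members were 2-fold higher (Ltbp4 and Smad3) and 3 lower (Ltbp1, Bmpr2 and Id4), when 6.68% of all genes were 2-fold apart. The median log2 ratio over the members was -0.02, against -0.00 over all 13129 compared genes, with 15 members above 0 and 17 below. Of all compared genes, 49.5% were above 0 and 50.5% below.

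A looser rule of 1.5-fold took in 8 of the 32 members (25%), against 8.43% of all compared genes. Higher in the mDom-/- pool were 2 of them, Ltbp4 and Smad9, with 4.08% of all genes 1.5-fold higher. Lower were 6, Tgfb3, Ltbp1, Acvr1, Acvrl1, Bmpr2 and Id4, with 4.35% of all genes 1.5-fold lower. Of those 6, Ltbp1, Bmpr2 and Id4 were bounds from signals close to the floor. Dim genes scattered more on this array pair. Among genes measured on both arrays, ratios had a robust SD of 0.35 (log2) in the dimmest 25% and of 0.19 in the brightest 25%. In the dimmest 25% lay 9 of the 28 members measured on both. Of the members past 1.5-fold and measured on both, only Smad9 lay there. Ltbp4, Tgfb3, Acvr1 and Acvrl1 lay in the second-dimmest 25%, where the robust SD was 0.26. The part of brightness in the 1.5-fold count was not tested, nor was that of choosing the list with earlier results of these data known. The median distance from 0 on the log2 scale was 0.22 for the members and 0.18 for all compared genes.

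**Figure D1:**
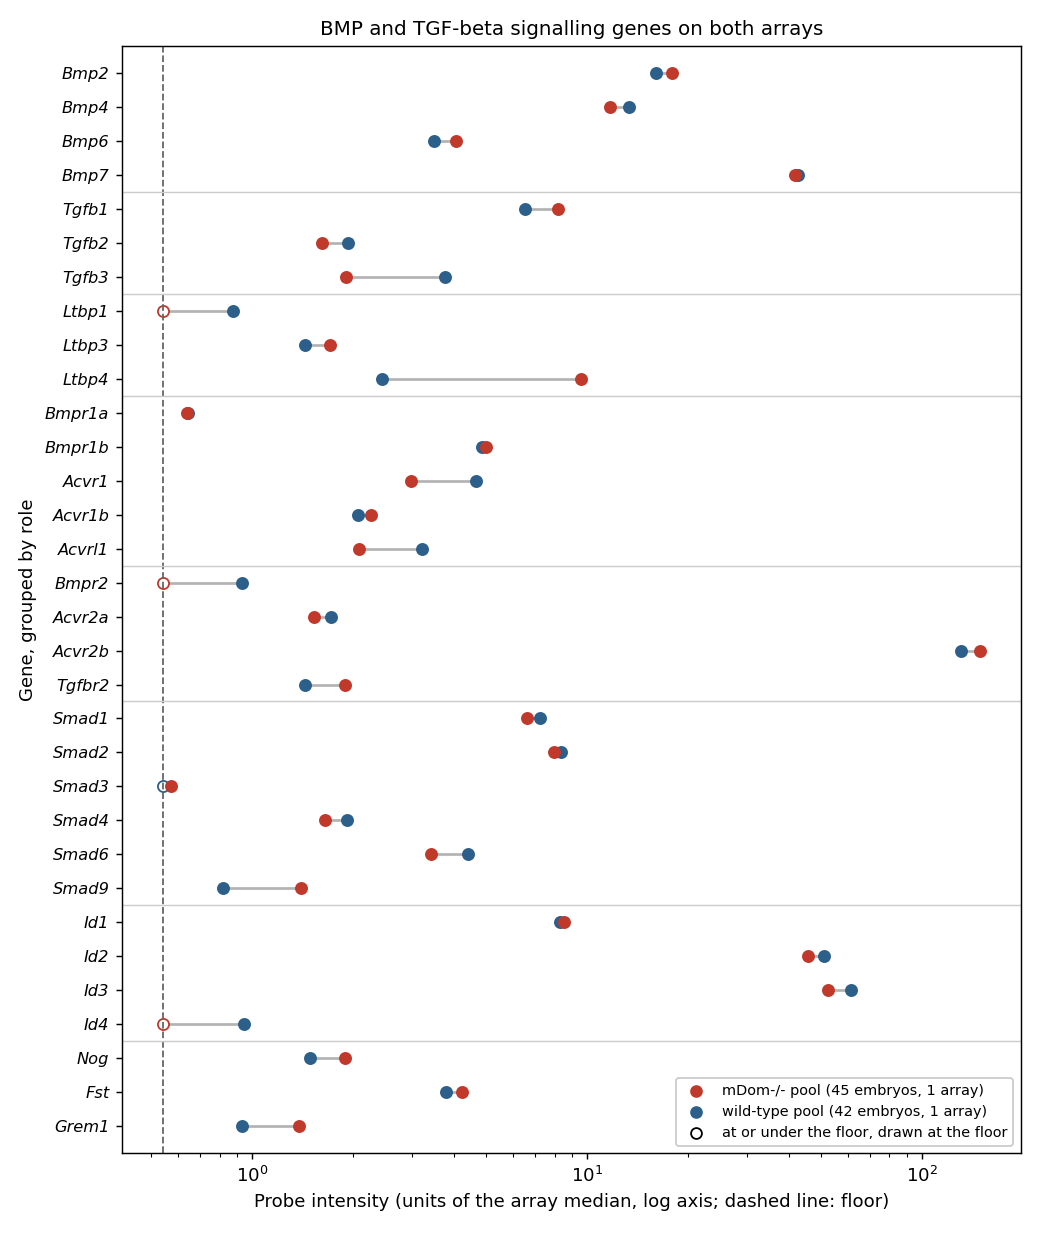
Probe intensity of each of the 32 compared members on the mDom-/- array (red) and the wild-type array (blue), in array medians on a log axis, 1 point per array, with open points at or under the floor of 0.541 (dashed). The widest gap between drawn points is that of Ltbp4 (9.63 in the mDom-/- pool and 2.44 in the wild-type pool), followed by Tgfb3 (1.91 in the mDom-/- pool and 3.78 in the wild-type pool). For Ltbp1, Bmpr2, Smad3 and Id4 the gap is cut short by the floor.

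Of the BMP ligands, 4 of 5 were compared and none was 1.5-fold apart. Bmp2, a ligand needed for heart and extraembryonic mesoderm, read 17.9 in the mDom-/- pool and 16.1 in the wild-type pool (log2 ratio 0.15), and its second probe read 2.94 in the mDom-/- pool and 2.96 in the wild-type pool (-0.01). Bmp4, which acts in mesoderm formation and the allantois, read 11.7 in the mDom-/- pool and 13.3 in the wild-type pool (-0.18). These differences were smaller than the SD of 0.25 between probes of a gene. Bmp6 read 4.07 in the mDom-/- pool and 3.49 in the wild-type pool (0.22). Bmp7, a broadly expressed ligand that can pair with other BMPs, had probes that disagreed. Its brighter probe read 41.7 in the mDom-/- pool and 42.8 in the wild-type pool (-0.04), and its dimmer one 16.3 in the mDom-/- pool and 11.3 in the wild-type pool (0.53, 1.44-fold higher). The Bmp5 probe was below the floor, at -0.158 in the mDom-/- pool and 0.246 in the wild-type pool.

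The 3 TGF-beta ligand genes went in different directions. Tgfb3, whose product acts in palate fusion and lung development, read 1.91 in the mDom-/- pool and 3.78 in the wild-type pool. It was 1.98-fold lower, just short of the 2-fold rule, and 1.82% of all compared genes lay as far from 0. A second Tgfb3 probe was below the floor on both arrays (0.271 in the mDom-/- pool and 0.383 in the wild-type pool) and gave no ratio, so a single probe carries the value. Tgfb1, a ligand with roles in yolk sac vessels and blood, was slightly higher, at 8.18 in the mDom-/- pool and 6.52 in the wild-type pool (log2 ratio 0.33). Tgfb2, with roles in heart and neural crest derivatives, read 1.62 in the mDom-/- pool and 1.93 in the wild-type pool (-0.26). Both differences were only slightly larger than the probe SD.

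Latent TGF-beta binding proteins hold the inactive ligand complex in the matrix, and their genes held the widest spread of the set. Ltbp4 read 9.63 in the mDom-/- pool and 2.44 in the wild-type pool, both well above the floor, a log2 ratio of 1.98. Only 4 of the 11920 genes measured on both arrays, Ltbp4 included, had a ratio as high, and 11 of all 13129 compared genes did. Its ratio stayed between 1.98 and 2.01 under every one of the 10 processing alternatives. Only the other scalings could move this ratio. Both readings lay above every floor tried, and the probe choices had 1 probe to take. It rests on 1 probe, with no second probe of the gene to set beside it. Ltbp1, which binds the latent forms of all the TGF-beta ligands, went the other way: it read 0.298 in the mDom-/- pool, under the floor, and 0.875 in the wild-type pool, at least 1.62-fold lower. Ltbp3 read 1.71 in the mDom-/- pool and 1.44 in the wild-type pool, 1.19-fold higher. The spread among the 3 (log2 ratios of -0.69, 0.25 and 1.98) was wider than that within the ligands, receptors, Smads, Id genes or antagonists.

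Among the type I receptors, Acvr1 and Acvrl1 were lower in the mDom-/- pool by similar amounts and 3 others were nearly level. Acvr1 encodes ALK2, a BMP receptor with roles at gastrulation and in left-right patterning. It read 2.99 in the mDom-/- pool and 4.66 in the wild-type pool, 1.56-fold lower. Acvrl1 encodes ALK1, a receptor of endothelial cells. Its probe read 2.09 in the mDom-/- pool and 3.22 in the wild-type pool, 1.54-fold lower. About as far from 0 lay 6.72% of all compared genes for Acvr1 and 7.19% for Acvrl1.

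The main BMP type I receptors did not stand apart. Bmpr1b read 4.98 in the mDom-/- pool and 4.85 in the wild-type pool (log2 ratio 0.04). Bmpr1a (ALK3), required for gastrulation, was barely above the floor, at 0.637 in the mDom-/- pool and 0.642 in the wild-type pool (-0.01). Acvr1b (ALK4), the activin and Nodal receptor, read 2.27 in the mDom-/- pool and 2.06 in the wild-type pool (0.14). Tgfbr1 (ALK5), the TGF-beta type I receptor, could not be compared, with 0.164 in the mDom-/- pool and 0.0161 in the wild-type pool.

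Endothelial markers were lower beside Acvrl1. Of the 6 listed, Pecam1, Cdh5, Tek, Kdr, Emcn and Cldn5, 5 were compared and all 5 were below 0, with log2 ratios from -1.09 (Emcn) to -0.18 (Tek). Their summed level was 37.1 in the mDom-/- pool and 49.5 in the wild-type pool. Pecam1, Cdh5 and Cldn5 were at or under the floor in the mDom-/- pool and Cdh5 alone in the wild-type pool. Their part in the Acvrl1 difference was not tested. In these whole-embryo pools, fewer cells of a type and less RNA per cell cannot be told apart.

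Type II receptors bind the ligand and activate the type I chain. Acvr2b, a receptor of activin, Nodal and BMPs, read 149 in the mDom-/- pool and 131 in the wild-type pool (log2 ratio 0.19), and Acvr2a 1.53 in the mDom-/- pool and 1.72 in the wild-type pool (-0.16). Bmpr2, the BMP type II receptor, read 0.220 in the mDom-/- pool, under the floor, and 0.930 in the wild-type pool, at least 1.72-fold lower. Tgfbr2, the TGF-beta type II receptor, had probes that opposed each other. The brighter read 1.90 in the mDom-/- pool and 1.43 in the wild-type pool (0.41), while the dimmer read 0.264 in the mDom-/- pool, under the floor, and 0.601 in the wild-type pool (-0.15, a bound). Tgfbr3, the co-receptor betaglycan, was under the floor on both arrays, at 0.0661 in the mDom-/- pool and 0.269 in the wild-type pool. Over all receptors, 9 of 11 genes were compared, 4 above 0 and 5 below, and the median was -0.01 on the log2 scale.

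**Figure D2:**
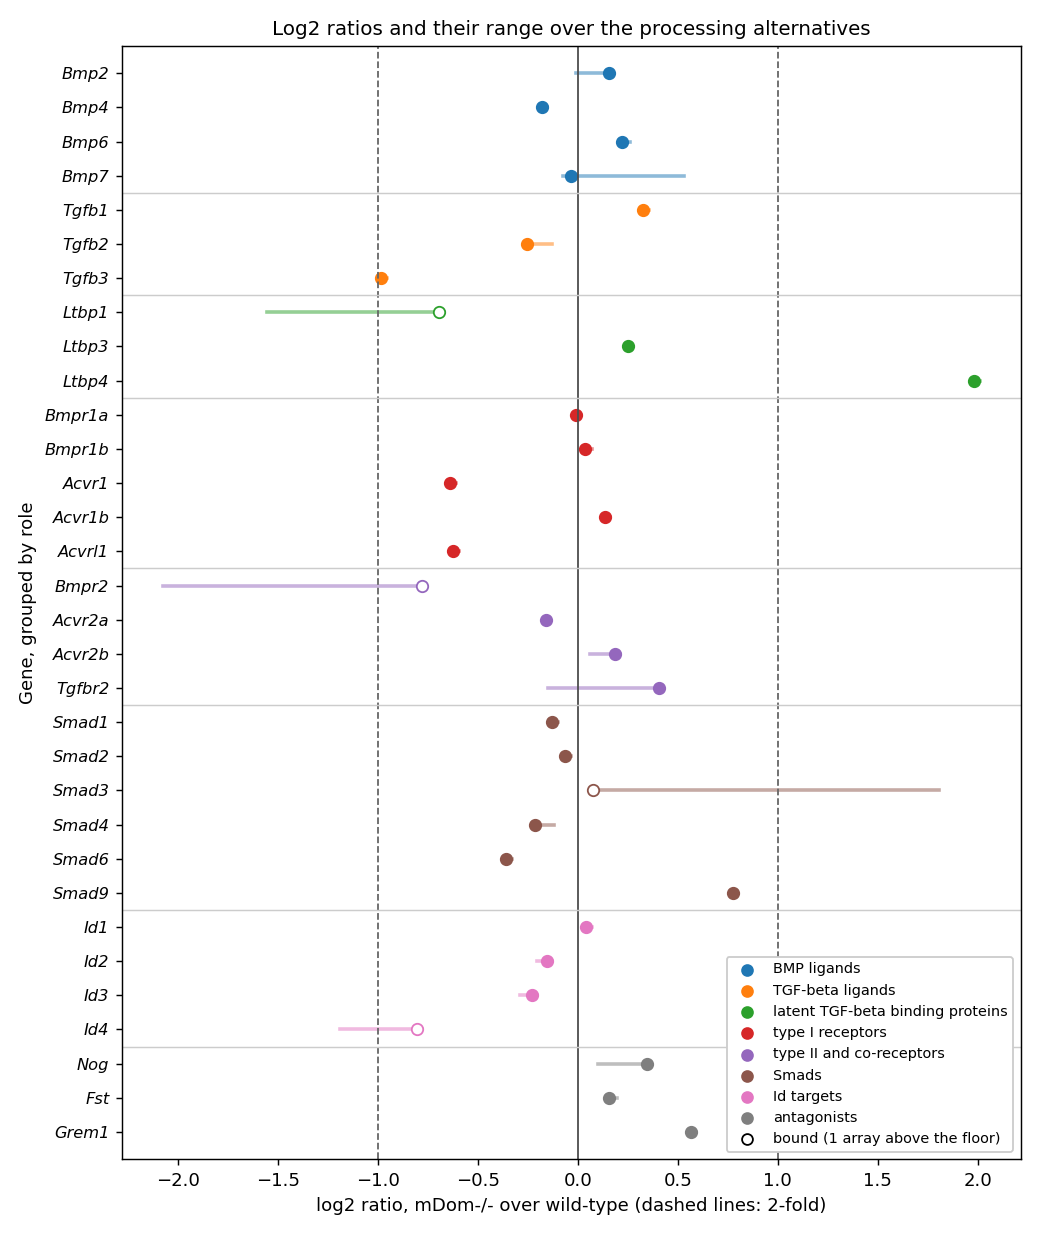
Log2 ratio of the mDom-/- pool over the wild-type pool for each compared member, coloured by role, with open points for bounds and a bar from the lowest to the highest value over the processing alternatives. Ltbp4 alone lies beyond the dashed 2-fold lines, Tgfb3 (-0.99) lies just inside, and the long bars belong to genes near the floor or with probes that disagree.

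Of the 6 compared Smad genes, none was 2-fold apart and the log2 ratios ran from -0.36 to 0.77. Smad1, a BMP-regulated Smad, read 6.60 in the mDom-/- pool and 7.22 in the wild-type pool (log2 ratio -0.13). Smad2, which transmits Nodal, activin and TGF-beta signals, read 7.96 in the mDom-/- pool and 8.33 in the wild-type pool (-0.07). Smad4, the partner shared by both branches, read 1.65 in the mDom-/- pool and 1.92 in the wild-type pool (-0.22). All 3 differed by less than the probe SD. Smad9 (Smad8), the third BMP-regulated Smad, read 1.40 in the mDom-/- pool and 0.817 in the wild-type pool, 1.71-fold higher from a dim signal; 3.93% of all compared genes lay as far from 0. Smad3 was barely over the floor in the mDom-/- pool (0.571) and under it in the wild-type pool (0.163), at least 1.05-fold higher. Smad5 was under it on both arrays, at 0.196 in the mDom-/- pool and 0.401 in the wild-type pool. Smad6, an inhibitory Smad of the BMP branch that is itself a BMP target and is expressed in endocardium and vessels, read 3.43 in the mDom-/- pool and 4.40 in the wild-type pool, 1.29-fold lower. The endothelial markers given above apply to it too.

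The Id genes encode helix-loop-helix proteins that block the DNA binding of their partners, and they are widely used as a readout of BMP signalling. The 3 bright ones differed little between the pools. Id1 read 8.52 in the mDom-/- pool and 8.29 in the wild-type pool (log2 ratio 0.04). Id2 read 45.8 in the mDom-/- pool and 51.0 in the wild-type pool (-0.15). Id3 read 52.6 in the mDom-/- pool and 61.6 in the wild-type pool (-0.23). Each of these lay within the probe SD. Id4, which is known from the nervous system, was dim: its probe read 0.414 in the mDom-/- pool, under the floor, and 0.944 in the wild-type pool, at least 1.75-fold lower.

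The 3 compared antagonist genes were each higher in the mDom-/- pool, none by 1.5-fold, where 49.5% of all compared genes were above 0. Of the 11 other extracellular antagonists and modulators compared, taken up below, 7 were above 0 and 4 below. Grem1, a BMP antagonist known from the limb bud and kidney, read 1.38 in the mDom-/- pool and 0.932 in the wild-type pool, 1.48-fold higher. Nog (Noggin), made in the notochord and dorsal midline, read 1.89 in the mDom-/- pool and 1.49 in the wild-type pool, 1.27-fold higher. Fst (follistatin), which binds activins and some BMPs, read 4.22 in the mDom-/- pool and 3.79 in the wild-type pool, 1.11-fold higher. The Fst log2 ratio of 0.16 lay within the probe SD. Both Grem1 and Nog were among the dimmest 25% of genes, where the robust SD was 0.35. Chrd (Chordin) was near 0, at 0.0677 in the mDom-/- pool and -0.121 in the wild-type pool.

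Notochord markers gave little to set beside Nog. Of Shh, Foxa2, Noto and T, only Foxa2 was above the floor, with a log2 ratio of 0.36. Shh and Noto were at or under the floor in both pools, and T was not analysed here. The summed level of the 3 with a probe was 3.32 in the mDom-/- pool and 2.58 in the wild-type pool, and their part in the Nog difference was not tested.

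**Figure D3:**
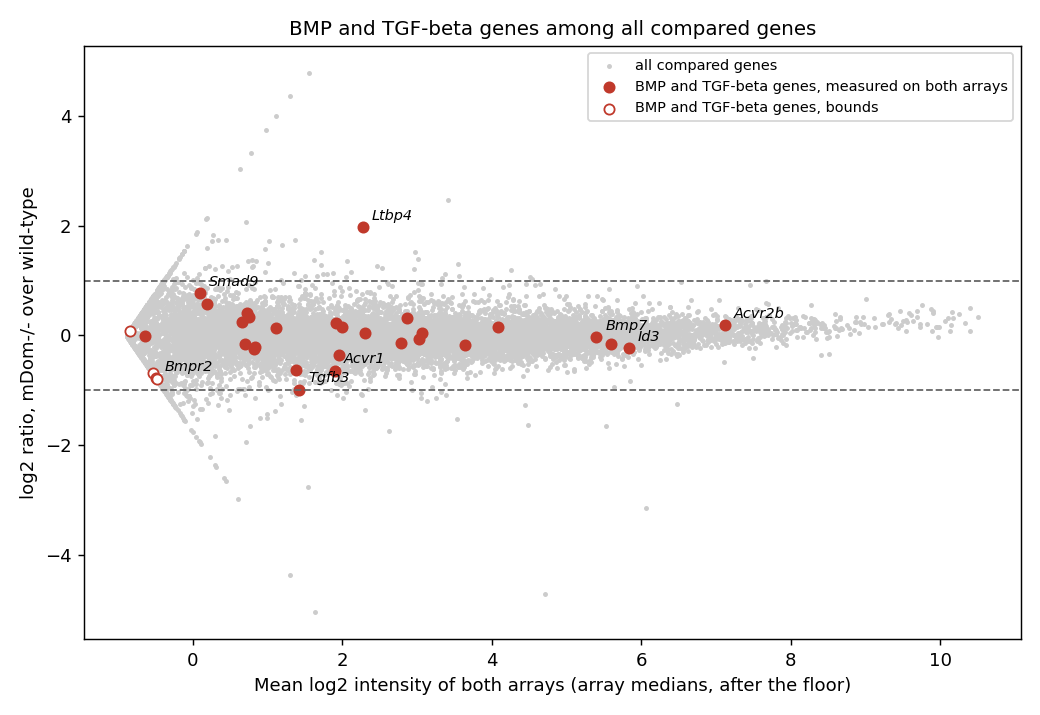
Log2 ratio of the mDom-/- pool over the wild-type pool against mean log2 intensity of both arrays, for all 13129 compared genes (grey) and the 32 compared members (red, open for bounds), with dashed lines at 2-fold. Ltbp4 lies above nearly all genes of like brightness, and the bounds lie on the diagonal edges that the floor makes.

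Beyond the member list, 68 other genes of the BMP, TGF-beta, activin and Nodal pathways were taken up, and 46 of them were compared. None was 2-fold apart, and their median log2 ratio was 0.04, with 27 above 0 and 19 below. At 1.5-fold, 5 were higher and 5 lower, 21.7% together against 8.43% of all compared genes. This list, like that of the members, was chosen with earlier results of these data known. The genes named next were named after their values were seen.

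Extracellular modulators were spread to both sides: 3 of 11 compared were 1.5-fold higher and 3 were 1.5-fold lower. Of all compared genes, 4.08% were 1.5-fold higher and 4.35% were 1.5-fold lower. Cer1 (Cerberus), a secreted inhibitor of Nodal and BMP, read 2.33 in the mDom-/- pool and 1.28 in the wild-type pool, 1.82-fold higher. Crim1, a membrane protein that binds BMPs, read 1.59 in the mDom-/- pool and 2.85 in the wild-type pool, 1.79-fold lower. A second Crim1 probe, a bound, had a log2 ratio of -0.18. Fstl3, a relative of follistatin, read 1.39 in the mDom-/- pool and 0.876 in the wild-type pool, 1.58-fold higher. A dimmer Fstl3 probe was at least 1.27-fold higher. Chrdl1, a Chordin relative, read 0.734 in the mDom-/- pool and 1.19 in the wild-type pool, 1.62-fold lower. Cer1, Fstl3 and Chrdl1 were among the dimmest genes measured on both arrays, where the robust SD was 0.35 (log2). Sost, a BMP and Wnt inhibitor gene, read 0.835 in the mDom-/- pool and 0.389, under the floor, in the wild-type pool. It was at least 1.54-fold higher. Its relative Sostdc1 read 0.437 in the mDom-/- pool, under the floor, and 0.909 in the wild-type pool, at least 1.68-fold lower.

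Fbn2, which encodes fibrillin-2, a microfibril protein to which latent TGF-beta binding proteins and BMPs attach, read 5.40 in the mDom-/- pool and 10.7 in the wild-type pool. It was 1.98-fold lower, opposite in direction to Ltbp4. Foxh1, the Smad partner of Nodal signalling, read 30.4 in the mDom-/- pool and 15.8 in the wild-type pool, 1.93-fold higher. Nodal itself read 1.83 in the mDom-/- pool and 1.98 in the wild-type pool (log2 ratio -0.11). Amhr2, a receptor gene of the family, read 1.31 in the mDom-/- pool and 0.838 in the wild-type pool, 1.56-fold higher. It too was among the dimmest genes, where the robust SD was 0.35. Tob1, a repressor of BMP Smads, read 0.354 in the mDom-/- pool, under the floor, and 1.04 in the wild-type pool. It was at least 1.92-fold lower, and a second Tob1 probe was under the floor on both arrays. On the list fixed for other targets of these signals, 3 of 5 genes were compared and none was 1.5-fold apart. Msx1 read 29.8 in the mDom-/- pool and 26.5 in the wild-type pool (0.17), Msx2 31.4 in the mDom-/- pool and 26.3 in the wild-type pool (0.26), and Tbx3 11.9 in the mDom-/- pool and 11.6 in the wild-type pool (0.04). Bambi, a decoy receptor that BMP induces, read 18.9 in the mDom-/- pool and 17.1 in the wild-type pool (0.15).

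**Figure D4:**
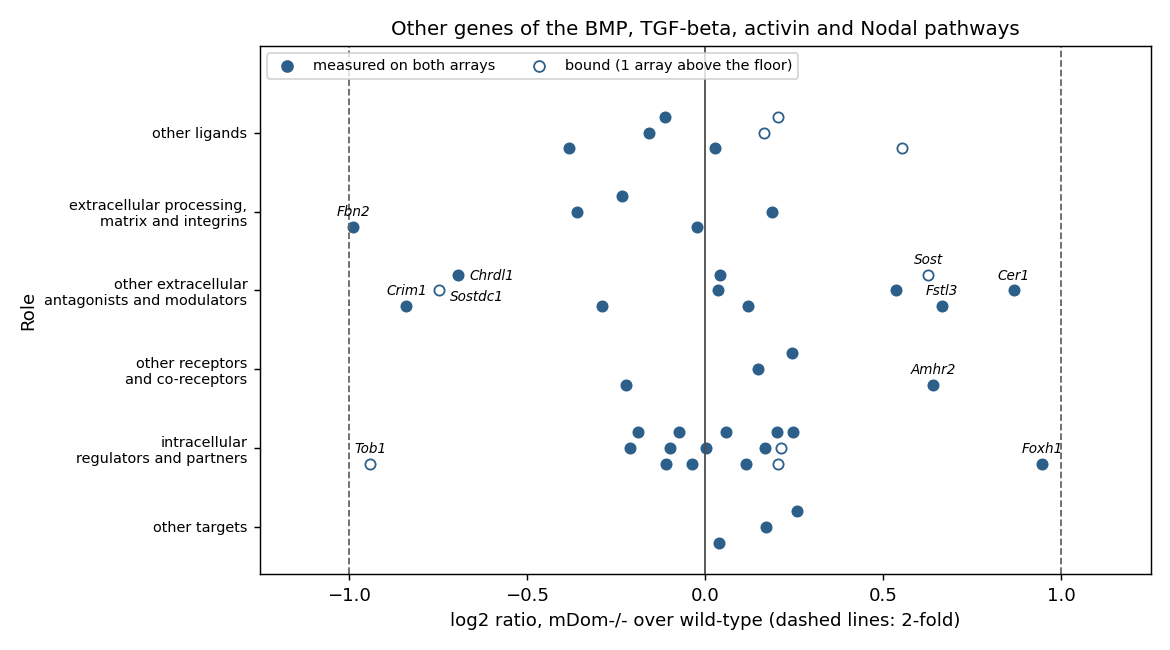
Log2 ratio of the mDom-/- pool over the wild-type pool for 46 other pathway genes by role, 1 point per gene, open for bounds, with dashed lines at 2-fold. All lie inside the 2-fold lines, and the names mark the 10 genes at least 1.5-fold apart, from Fbn2 (-0.99) to Foxh1 (0.95).

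Markers of several tissues differed between the pools. Those of primitive red cells differed most: their summed level was 27.8 in the mDom-/- pool and 334 in the wild-type pool, with Hbb-y 26.2-fold lower, Hba-x 8.91-fold lower and Gata1 under the floor in the mDom-/- pool only. Of the allantois and extraembryonic mesoderm genes, Postn was 2.05-fold lower, Ahnak was at least 1.17-fold higher and Tbx4 was under the floor in both. Their summed level was 3.65 in the mDom-/- pool and 6.49 in the wild-type pool. Among surface ectoderm genes, the Trp63 probe used was at least 2.44-fold lower, though a dimmer one had a log2 ratio of 0.23, and Krt8 and Epcam had 0.04 and -0.15. Their summed level was 30.2 in the mDom-/- pool and 34.2 in the wild-type pool. The 4 compared heart genes had a median of -0.01 on the log2 scale, from -1.44 (Myh7) to 0.08 (Myl7), and a summed level of 424 in the mDom-/- pool and 407 in the wild-type pool, with Myh6 under the floor in both. The 4 neural crest genes had a median of -0.70, with summed levels of 15.0 in the mDom-/- pool and 24.4 in the wild-type pool and none under the floor. They were split, with log2 ratios of -1.20 (Sox10), -1.19 (Tfap2a), -0.21 (Foxd3) and 0.11 (Ets1). Sox10 alone read 5.79 in the mDom-/- pool and 13.3 in the wild-type pool. The 4 dorsal neural tube genes had a median of 0.07, with Zic1 at -1.74, and summed levels of 48.9 in the mDom-/- pool and 52.9 in the wild-type pool. Msx1, given above as a target of these signals, is on this list too. It made up 29.8 of the sum in the mDom-/- pool and 26.5 in the wild-type pool. Visceral endoderm genes were bright in both pools, with summed levels of 464 in the mDom-/- pool and 405 in the wild-type pool, although the tissue is labelled as the embryo proper. The higher sum came from Ttr (log2 ratio 0.59), while Afp (-0.33) and Apoa1 (-0.13) were lower and the median was -0.13. Amn, which marks visceral endoderm, was under the floor in both. The part of any of these in the values of the BMP and TGF-beta genes was not tested.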

How the data were processed

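Expression was measured in 1 pooled RNA sample per group, assigned to groups by sample title. The deposited intensities came from the CodeLink System Software, per the labels. Its version, background correction, scaling and detection flags are not stated in the sources used here. A linear scale was assumed, since the values include negative numbers and span a wide range, and every fold depends on it. The authors' columns had medians of 1.05 in both pools and maxima of 1714 in the mDom-/- pool and 1374 in the wild-type pool. The code -9999 was read as no value (106 mDom-/- and 105 wild-type probes).

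Each array was divided by its median, raised to a floor (the higher of the 40th percentiles of both arrays) and put on the log2 scale. Probes under the floor on both arrays were left out, and a gene took its brightest remaining probe. GEO's platform annotation gave a single symbol for 21615 of 36227 probes, several for 681 and none for 13931. The Entrez identifiers of 21487 probes were found in the RefSeq table of GRCm38.p6, used for current symbols. Probes with several symbols named no gene. The build of the probe design is unknown, so no probe position is given.

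With 1 array per group there is no test, and that number sets the precision. Alternatives were other scalings (none, 75th percentile, quantile, loess with span 0.3), floors (25th or 60th percentile, none), probe choices and fold rules of 1.5 and 3. The ratio computation was tested on simulated data, with large changes put into bright genes only. That test does not cover genes near the floor, bounds or small changes. All compared members were named; other pathway genes were to be named when 2-fold apart, and those named below that are marked. Members and lists were chosen with earlier results of these data known. Python 3.11.15, pandas 2.3.3, numpy 2.4.6, statsmodels 0.14.6 and matplotlib 3.10.9 were used.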

Additional observations from a re-analysis of the deposited data

How the results depend on the processing

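Of 307 values of single members under 10 alternatives, 294 moved by less than the probe SD of 0.25 and 13 moved by more. Only Ltbp4 had a 2-fold call that could be reversed, and its sign held. Many values could not move, because the floors and probe choices leave a bright gene with 1 probe unchanged. The larger moves were in Ltbp1, Bmpr2, Smad3 and Id4, near the floor, and in Bmp7 and Tgfbr2, whose probes disagree. Among the 32 compared members, 28 kept their sign in every alternative that compared them, and the others were Bmp2, Bmp7, Bmpr1a and Tgfbr2. With the floor at the 25th percentile, 2 members were at least 2-fold higher (Ltbp4, Smad3) and 3 lower (Ltbp1, Bmpr2, Id4), when 6.68% of all genes were 2-fold apart. Without a floor 3 were higher and 5 lower, when 14.2% of all genes were. The 1.5-fold rule gave 2 higher and 6 lower. The median of the latent TGF-beta binding protein genes was 0.25, but 1.98 with the floor at the 60th percentile, which left only Ltbp4, and 1.11 over genes above the floor on both arrays, which left Ltbp3 and Ltbp4. The other medians moved by less than 0.25. No paired analysis was possible because each group has 1 array. Signal over background limits the genes near the floor, and 5 members gave no ratio.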
